A study of Sus scrofa with 6 samples.

Results

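Wnt, Notch and BMP signalling genes were followed in weaned piglets with and without transport, in the jejunum, which lies between duodenum and ileum. They were taken as the rows of the deposited gene table whose symbol names a WNT, FZD, NOTCH, DLL, JAG, HES, BMP, RSPO, SFRP or DKK gene with a number, together with BMPR1A, BMPR2, LRP5, LRP6, RNF43 and ZNRF3. The rule found 66 of 24358 genes, of which 41 belong to Wnt, 13 to Notch and 12 to BMP signalling, counting the protease gene BMP1 and the kinase gene BMP2K with the last. The rule reads gene names and no measured value. LRP5 and RNF43 stand in the table under an identifier alone. They were named from a gene name reference and are described beside the 66 without being counted among them, as are WNT5B and DLL3.

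The study compared jejunum of healthy weaned piglets, bred from Large White and Landrace pigs, that were not transported (controls 1 to 3) with jejunum of such piglets after transport (transports 1 to 3). Both groups carry the same labels apart from transport, and no transgene, drug or diet is named. Age, sex, the length of the journey and when the tissue was taken could not be read from the labels. Whether each sample is a different animal is not stated, so a p-value here reflects the spread between 3 libraries a group, and that spread may be technical.

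Wnt ligands bind frizzled receptors and the coreceptors LRP5 and LRP6 and stabilise beta-catenin, which keeps stem cells at the base of the intestinal crypt dividing. R-spondins, secreted by the tissue under the crypt, strengthen that signal by removing the receptor-degrading ligases RNF43 and ZNRF3. Notch signalling passes between neighbouring cells through membrane-bound ligands and switches on HES repressors, which in the crypt hold back secretory cell fates. BMP ligands act against stem cell renewal and mark the differentiating villus, where they signal through BMPR1A and BMPR2.

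The libraries held 48208451 to 53739246 counts. Control 2 had little RNA of muscle and connective tissue: the summed level of 6 smooth muscle markers was 57.8 FPKM there and 977 to 2693 FPKM in the other 5 libraries, and that of 6 fibroblast markers 49.0 against 335 to 682 FPKM. FPKM gives fragments per kilobase of transcript and per unit of library size. Transport 3 carried markers of ileum (6871 FPKM summed over 3 markers against 2.91 to 15.1), of B cells (468 against 6.75 to 12.3 over 4 markers) and of dividing cells (315 against 40.1 to 93.9 over the 5 of 6 markers in the table). Its ileal markers summed to more than its jejunal ones, which goes against the label jejunum, and its median correlation with the other libraries was 0.818 against 0.888 to 0.93 for the rest. Jejunal markers (FABP2, APOA4 and SI, summed) were at 1373 to 1591 FPKM in controls and 200 to 489 after transport, and none was at 0 in any library. FABP2 and APOA4 made up most of that sum, while SI was at 51.4, 14.9 and 15.7 FPKM in controls and 21.8, 99 and 99.9 after transport. T cell markers (5 genes, summed) were at 15.3 to 22.2 FPKM in controls and 33.0 to 55.2 after transport, without overlap, and their part in the values of the members was not tested. Fold changes of several members are also given without control 2 or transport 3. In such bulk tissue fewer cells of a type and less RNA per cell cannot be told apart.

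None of the 34 members that could be tested passed the test for a difference between the groups. Genes with at least 1 FPKM in at least 3 libraries were tested with edgeR's quasi-likelihood test, and 0 of the 34 members passed an adjusted p of 0.05, where 0.0167% of all 12012 tested genes did. The smallest adjusted p of a member was 0.890. At an unadjusted p under 0.05, 2 members (DLL4 and BMP7) were lower and 0 higher, beside 1.61% and 3.52% of all tested genes, and DESeq2 also called 0 members. The groups did not overlap in 5 of the 34 (14.7%), 2 higher and 3 lower after transport, where 11.6% of all tested genes had no overlap, 6.25% higher and 5.33% lower. That share is near the background. Lower values after transport were found for 19 of the 34 (55.9%) and for 43.1% of all tested genes. The log2 fold changes of the 34 (transport against control) ran from -1.23 to 1.11 with standard errors (SE) of 0.26 to 1.13 and a median of -0.19, against a median of 0.07 over all tested genes. Without transport 3 the medians were 0.01 and 0.0 and 16 of the 34 had lower values. With the replicate number as a block the medians were -0.02 and 0.05. They moved the other way without transport 1 (-0.43 and 0.07) and without control 2 (-0.28 and 0.06), with 23 of the 34 lower in each. With 1 library left out in turn, the median of the members ran from -0.43 to 0.05. By family the median was -0.04 for 17 Wnt members, -0.32 for 8 Notch members and -0.14 for 9 BMP members.

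**Figure D1:**
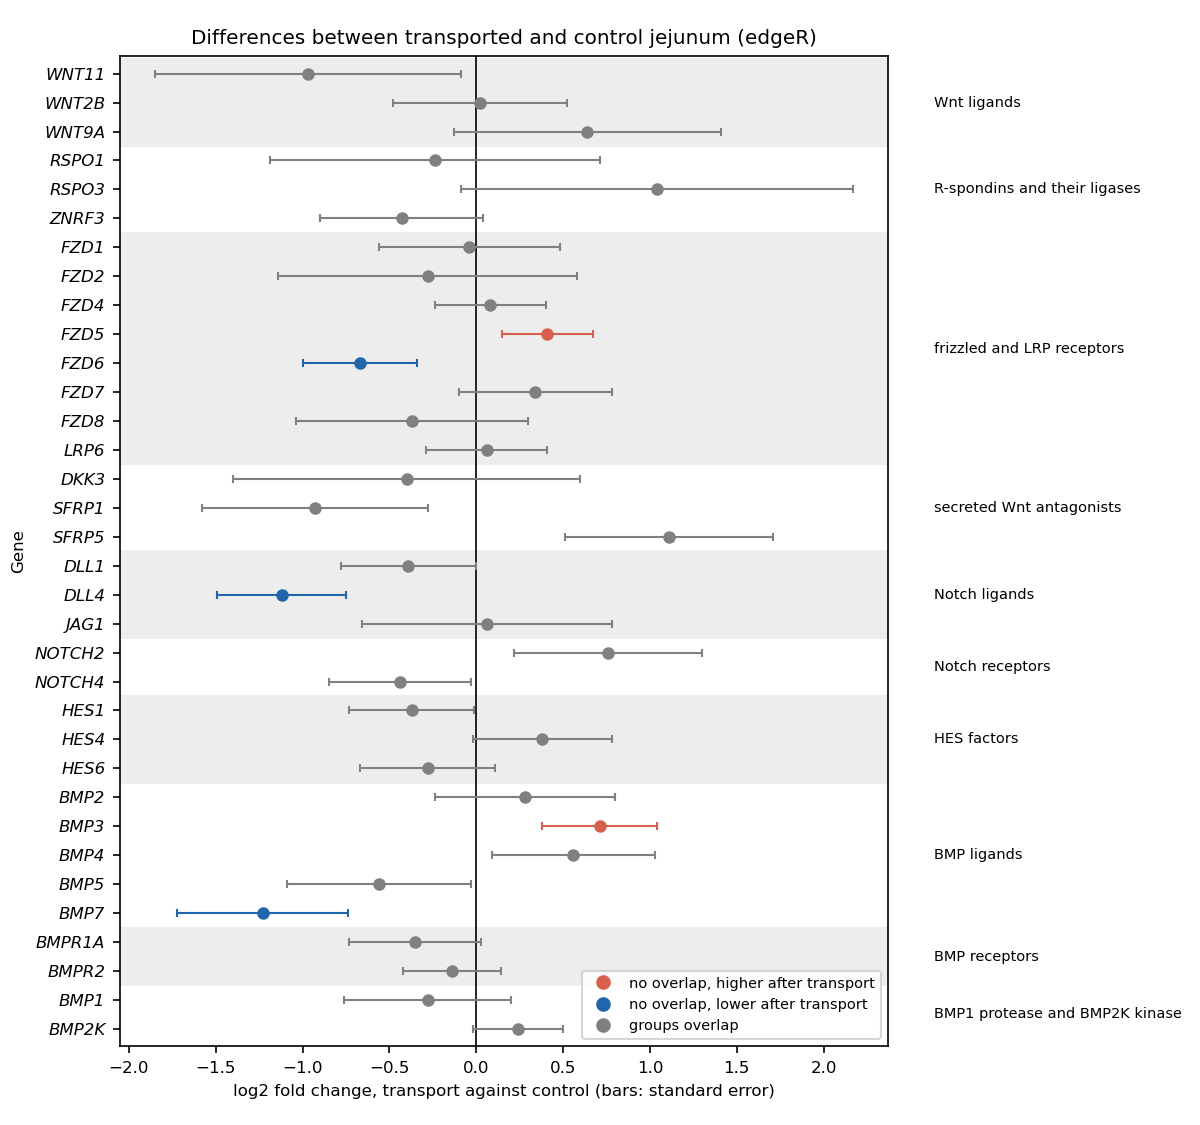
Log2 fold change of the 34 tested genes, transport against control, with bars of 1 standard error derived from the F statistic of edgeR. Colour marks genes whose 3 transport libraries all lie above or below the 3 controls in CPM, the count scaled to library size. The points lie between -1.23 and 1.11, and no gene passed the adjusted threshold.

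The spread among the controls was larger than the difference between the groups for most members. In 29 of 34 (85.3%) the range of the 3 controls on the log2 CPM scale exceeded the difference of the group means, as it did in 70.7% of all tested genes. The median range over the 6 libraries was 1.61 on that log2 scale for the members and 1.35 for all tested genes. The 5 exceptions were BMP7, DLL4, FZD6, WNT11 and SFRP5.

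**Figure D2:**
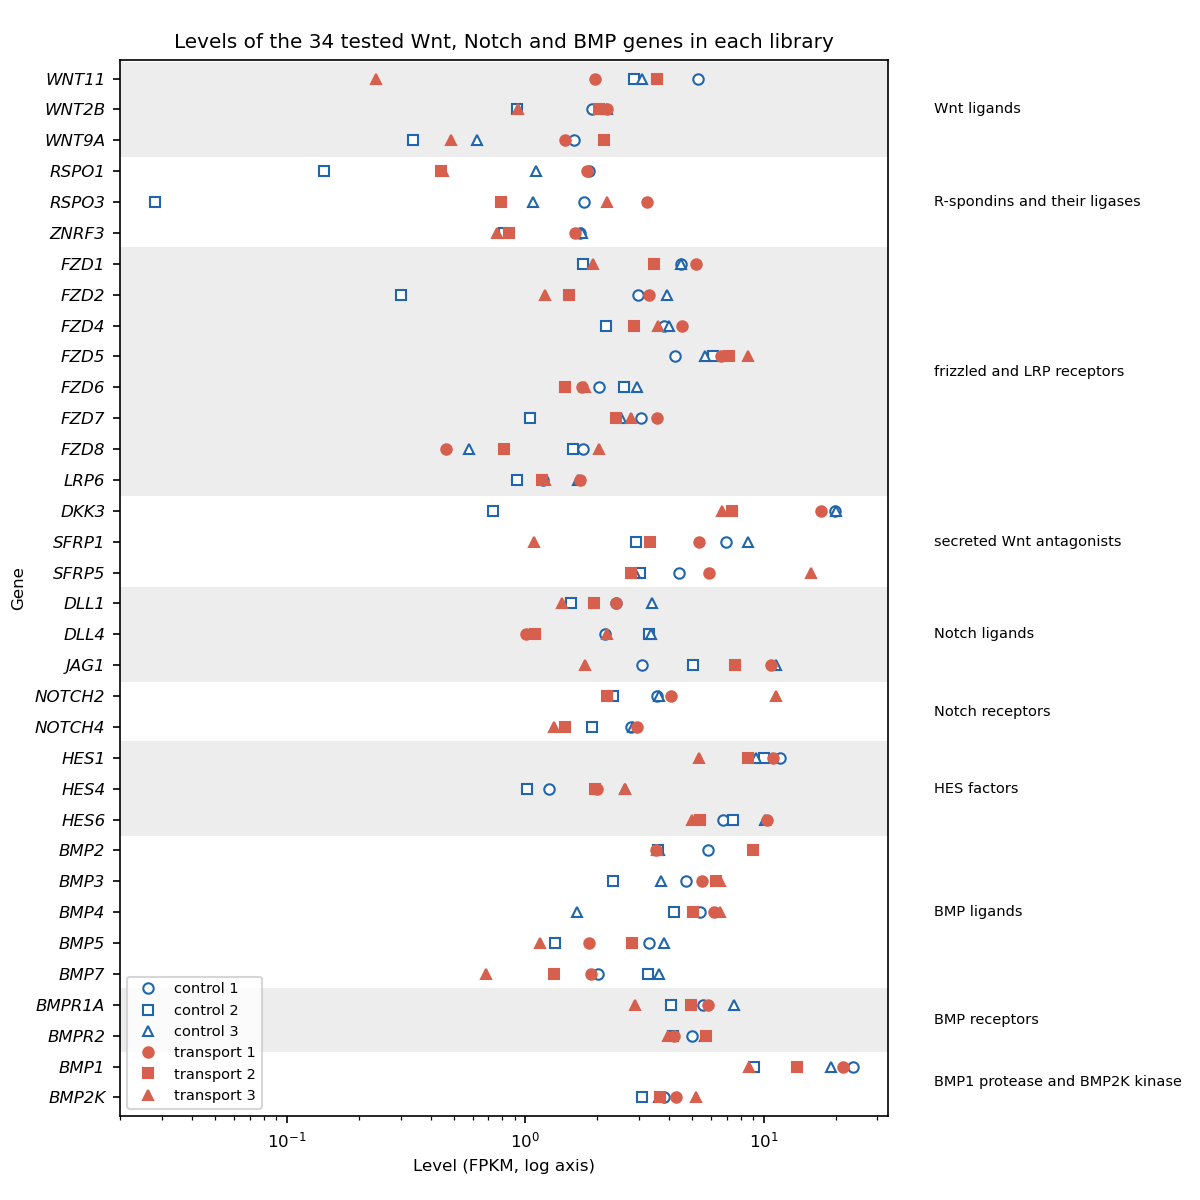
Level of the 34 tested genes in each library in FPKM on a log axis, grouped by role; open blue symbols are controls, filled red symbols transports, and the shape gives the replicate number. RSPO3, DKK3 and FZD2 have control 2 far to the left, and WNT11 and SFRP1 have transport 3 far to the left.

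Most Wnt ligand genes stayed below the filter of 1 FPKM in 3 libraries. Of 17 Wnt ligand genes only 3 passed the filter, WNT11, WNT2B and WNT9A, with means over the 6 libraries of 2.84, 1.70 and 1.11 FPKM. WNT11, a ligand known for beta-catenin-independent signalling, was at 5.32, 2.86 and 3.08 FPKM in controls and 1.95, 3.57 and 0.236 after transport. Transport 3 lay far below the rest and the groups overlapped, with a log2 fold change of -0.97 and an SE of 0.88. It was -0.46 (SE 0.45) without transport 3 and -1.85 (SE 0.96) without transport 2. WNT2B, a stromal ligand that sustains crypt stem cells, was at 1.91, 0.926 and 2.20 FPKM in controls and 2.21, 2.04 and 0.927 after transport. Control 2 and transport 3 were the low libraries, 1 in each group. WNT9A was at 1.6, 0.338 and 0.629 FPKM in controls and 1.46, 2.14 and 0.486 after transport, so the groups overlapped again.

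WNT3, which in mouse is made by Paneth cells, stayed between 0.0835 and 0.247 FPKM in every library. WNT5A, a ligand of the villus and crypt mesenchyme, was below the filter too, at 1.63, 0.348 and 1.93 FPKM in controls and 0.600, 0.604 and 0.735 after transport. The 3 transports were close together and lay between the low control 2 and the other 2 controls. WNT1, WNT2, WNT6, WNT8A, WNT8B, WNT9B, WNT10A, WNT10B and WNT16 had counts in at least 1 library and never exceeded 0.468 FPKM, the level of WNT10B in control 3. WNT5B, outside the 66, was at 0 to 0.970 FPKM. WNT3A, WNT7A and WNT7B had no count in any library. That allows a level of up to 0.0558 to 0.0622 CPM by library (3 counts, counting error only). This limit was taken over the total counts, without the scaling factors used for the other CPM values. Reads of WNT1 and WNT10B, which overlap on opposite strands, cannot be told apart where counting ignored strand, and whether it did so is not stated. The same holds for WNT2B, which overlaps ST7L on the opposite strand.

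Control 2 was the lowest library of both R-spondin genes that were tested. RSPO3, the main R-spondin of the tissue around the crypt in mouse, was at 1.76, 0.0279 and 1.08 FPKM in controls and 3.25, 0.792 and 2.19 after transport. Control 2 had 4 counts of RSPO3 and the other 5 libraries 110 to 440. The log2 fold change of 1.04 had an SE of 1.13, and without control 2 it was 0.47 (SE 0.66). The groups overlapped, with controls 1 and 3 above transport 2. Matched by replicate number, which the labels do not give as a pairing, RSPO3 was higher in each transport library. With that number as a block the log2 fold change was 1.83 (SE 0.88, adjusted p = 0.94, edgeR). RSPO1 was at 1.85, 0.143 and 1.11 FPKM in controls and 1.82, 0.444 and 0.450 after transport, a range of 12.9-fold. The log2 fold change of RSPO1 was -0.24 (SE 0.95), and -0.75 (SE 0.78) without control 2. RSPO2 had reads in control 1 (0.473 FPKM) and transport 3 (0.776) and none in the other 4 libraries, and RSPO4 had none in any.

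Of the ligases that R-spondins remove, ZNRF3 was at 1.70, 0.814 and 1.72 FPKM in controls and 1.62, 0.857 and 0.761 after transport. Its groups overlapped, with a mean of 1.41 ± 0.519 (SD, n = 3) and 1.08 ± 0.473. RNF43, read through its identifier, stood at 20.5, 17.5 and 15.0 FPKM in controls and 29.4, 26.7 and 3.37 after transport. Transports 1 and 2 were above all controls and transport 3 was far below them, so that the means of 17.7 ± 2.73 and 19.8 ± 14.3 FPKM differed by less than the spread. RNF43 was on average the most abundant of all the receptor-level Wnt genes measured here.

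Among the frizzled receptors FZD5, in mouse a frizzled of the crypt epithelium, had the highest mean at 6.4 FPKM. It was at 4.24, 6.11 and 5.69 FPKM in controls and 6.63, 7.17 and 8.56 after transport, so all 3 transports lay above all 3 controls. In CPM the groups nearly touched, with control 2 at 35.8 and transport 1 at 36.2. They overlapped with DESeq2 size factors, when every gene with a count was tested, and without transport 3. The difference was small, at 0.41 on the log2 scale with an SE of 0.26, and did not pass in edgeR (adjusted p = 0.890). FZD5 lies on chromosome 15 at 110916008 to 110921353 on the minus strand. FZD6 (chromosome 4, 33811284 to 33843294, minus strand) went the other way. Its level was 2.04, 2.59 and 2.93 FPKM in controls and 1.72, 1.47 and 1.77 after transport, without overlap. The log2 fold change of FZD6 was -0.67 (SE 0.33, adjusted p = 0.890, edgeR).

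The other frizzled genes overlapped between the groups. FZD1 was at 4.48, 1.74 and 4.48 FPKM in controls and 5.22, 3.46 and 1.92 after transport, FZD4 between 2.17 and 4.56 and FZD8 between 0.465 and 2.04. FZD2 was at 2.98, 0.3 and 3.92 FPKM in controls and 3.29, 1.52 and 1.21 after transport, and FZD7 at 3.06, 1.05 and 2.52 against 3.57, 2.41 and 2.78. Control 2 was the lowest library of FZD2, FZD4 and FZD7. The log2 fold change of FZD2 was -0.28 (SE 0.86), and -0.80 (SE 0.56) without control 2. That of FZD8 was -0.37 (SE 0.67), and -1.06 (SE 0.67) without transport 3. FZD3, FZD9 and FZD10 were under 1 FPKM throughout. The coreceptor LRP6 was at 1.18, 0.925 and 1.66 FPKM in controls and 1.69, 1.17 and 1.21 after transport. Its partner LRP5, read through its identifier, was at 9.92, 7.02 and 8.83 FPKM and at 9.99, 11 and 5.47, with means of 8.59 ± 1.47 and 8.83 ± 2.96 that differed by less than the spread. Overlapping genes make the reads of FZD4 (with TMEM135) and FZD8 uncertain.

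The secreted antagonists of Wnt varied widely between libraries. DKK3, a divergent member of the dickkopf family, was at 19.9, 0.733 and 20.0 FPKM in controls and 17.4, 7.38 and 6.69 after transport. The groups overlapped because of control 2 alone, and the log2 fold change was -0.40 (SE 1.0). Without control 2 it was -0.96 (0.51, adjusted p = 0.999, edgeR). SFRP1, which binds Wnt ligands outside the cell, was at 6.92, 2.92 and 8.55 FPKM and at 5.34, 3.33 and 1.09, lowest in transport 3, with a log2 fold change of -0.93 (SE 0.65). Without transport 3 that was -0.51 (SE 0.45), and without transport 1 it was -1.46 (SE 0.72). SFRP5 was at 4.39, 3.03 and 2.87 FPKM in controls and 5.87, 2.76 and 15.8 after transport. Its log2 fold change of 1.11 (0.60) rested on transport 3 and was 0.28 (0.43) without that library. SFRP5 overlaps ZFYVE27 on the opposite strand. SFRP2 and SFRP4 reached 1 FPKM in control 3 and transport 1 only, and DKK1, DKK2 and DKK4 in no library.

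**Figure D3:**
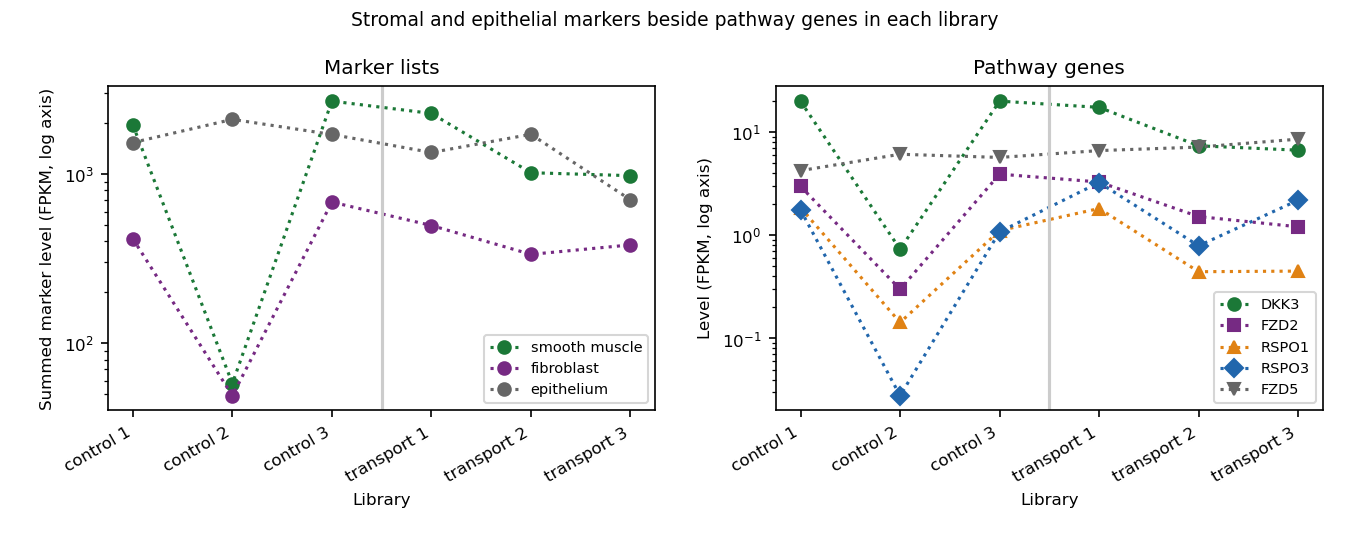
Left, summed FPKM of smooth muscle, fibroblast and epithelial markers in each library on a log axis; right, FPKM of DKK3, FZD2, RSPO1, RSPO3 and FZD5 on a log axis. Control 2 has the lowest point of both stromal lists and of DKK3 (0.733), FZD2 (0.300), RSPO1 (0.143) and RSPO3 (0.0279), while FZD5 is at 6.11 there.

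The plot of marker lists beside pathway genes shows these 4 genes and the stromal lists low in the same library. The 4 belong to the members, named next, that lay far below the other libraries in control 2, so this match follows from their choice. Of the members described here as mesenchymal, WNT5A was lowest in control 2 too (0.348 FPKM). BMP4 was at 4.20 FPKM there and lowest in control 3 (1.64), and BMP5 was at 1.33 there and lowest in transport 3 (1.15). In control 2, 5 members lay more than 2-fold below all the other libraries on the CPM scale, namely DKK3, FZD2, FZD7, RSPO1 and RSPO3, which is 14.7% of the 34 against 5.15% of all tested genes. None lay that far above. Epithelial markers summed to 2101 FPKM in control 2 and to 704 to 1715 in the other libraries. The part of stromal content in these values was not tested.

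Notch ligands included the member with the smallest p. DLL4 (chromosome 1, 130374120 to 130386101, minus strand), which activates Notch in crypt cells and in sprouting vessels, was at 2.16, 3.29 and 3.36 FPKM in controls and 1.01, 1.10 and 2.20 after transport. Its mean was 2.94 ± 0.671 FPKM (SD, n = 3) and 1.44 ± 0.663. Transports 1 and 2 were well below every control, and transport 3 was at the level of control 1. In CPM it did not overlap, with 15.9 to 24.4 in controls and 7.03 to 13.7 after transport, whereas the FPKM of transport 3 was just above that of control 1. The log2 fold change was -1.12 (SE 0.37, adjusted p = 0.890, edgeR), with an unadjusted edgeR p of 0.0203. It was -1.5 (SE 0.33) without transport 3, whereas leaving out control 2, control 3, transport 1 or transport 2 raised the unadjusted p to between 0.058 and 0.0629.

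Markers of endothelium, goblet cells and the crypt base varied too. Endothelial markers summed to 12.1 to 28.1 FPKM in controls and 17.4 to 23.3 after transport, goblet cell markers (3 of 4 in the table) to 238 to 641 and 148 to 622, and crypt base markers to 525 to 2896 and 159 to 709. OLFM4 made up most of the crypt base sum, at 417, 2807 and 2448 FPKM in controls and 637, 366 and 144 after transport. That list also holds LGR5, ASCL2, SMOC2, EPHB2 and SLC12A2. None of the markers in the table was at 0 in all libraries in these 3 lists. Their part in the values of DLL4 was not tested. DLL1, the other delta ligand of the crypt, was at 2.41, 1.56 and 3.41 FPKM in controls and 2.39, 1.94 and 1.42 after transport, with overlap. JAG1, a ligand of many tissues, varied over 6.33-fold, from 1.78 FPKM in transport 3 to 11.3 in control 3, and its group means of 6.47 ± 4.29 and 6.69 ± 4.53 FPKM were nearly equal. The log2 fold change of JAG1 was 0.06 (SE 0.72), and 0.50 (SE 0.50) without transport 3. DLL3, outside the 66, reached 0.578 FPKM in transport 3 and at most 0.111 elsewhere.

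**Figure D4:**
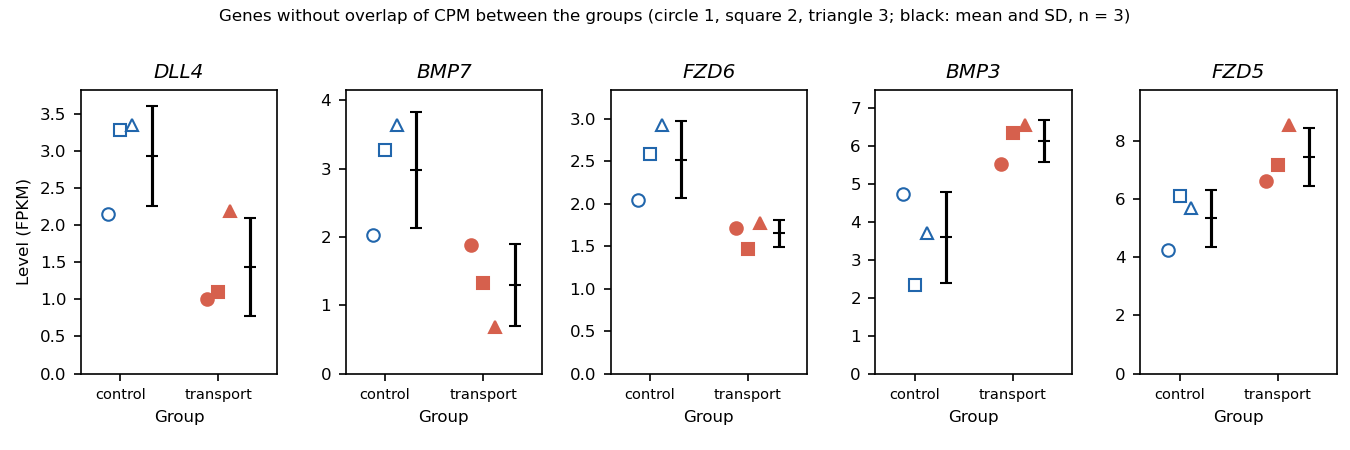
Level in FPKM, on axes that start at 0, of the 5 tested genes whose groups did not overlap in CPM; symbols are libraries and the black bar is the mean with its SD (n = 3). DLL4, BMP7 and FZD6 are lower and BMP3 and FZD5 higher after transport, and for DLL4 transport 3 (2.20) touches control 1 (2.16) on this scale.

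Of the Notch receptors, NOTCH2, which in mouse acts in the crypt epithelium and is also needed for marginal zone B cells, was at 3.56, 2.34 and 3.65 FPKM in controls and 4.07, 2.20 and 11.3 after transport. The high value of transport 3 set the log2 fold change of 0.76 (SE 0.54), which was -0.05 (0.32) without it. B cell markers were at 468 FPKM in that library and at most 12.3 elsewhere, and their part in the NOTCH2 level was not tested. NOTCH4, a receptor of blood vessel endothelium, was at 2.78, 1.91 and 2.82 FPKM in controls and 2.94, 1.46 and 1.32 after transport. NOTCH3, a receptor of vascular muscle cells, passed 1 FPKM in control 1 (1.03) and transport 1 (1.90) only, and it overlaps another gene in the table.

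HES1, the main Notch target that represses secretory fate, was the best expressed of the HES genes. It was at 11.7, 9.99 and 9.32 FPKM in controls and 10.9, 8.61 and 5.36 after transport, with a mean of 10.3 ± 1.24 and 8.29 ± 2.78. Transport 1 lay inside the range of the controls and transport 3 was lowest. The log2 fold change was -0.37 (SE 0.36), and -0.13 (SE 0.24) without transport 3. HES6, which counteracts HES1, was at 6.72, 7.44 and 10.1 FPKM in controls and 10.3, 5.40 and 5.01 after transport. HES4 was at 1.25, 1.02 and 2.61 FPKM and at 2.0, 1.95 and 2.61. HES2 reached 1 FPKM in controls 2 and 3 only, HES7 in none, and HES3 and HES5 had no counts.

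BMP ligands differed in direction. BMP7 (chromosome 17, 57584952 to 57676359, minus strand) was at 2.02, 3.27 and 3.64 FPKM in controls and 1.88, 1.32 and 0.682 after transport, with means of 2.98 ± 0.848 and 1.29 ± 0.600 (SD, n = 3). The groups did not overlap, though control 1 and transport 1 were close. The log2 fold change was -1.23 (SE 0.49, adjusted p = 0.890, edgeR), with an unadjusted edgeR p of 0.0395. Without transport 3, the lowest library, it was -0.93 (SE 0.38), and without control 2 as well -0.79 (SE 0.42). Leaving out control 2, control 3 or transport 2 raised the unadjusted p to between 0.0778 and 0.106, and the replicate number as a block to 0.0586.

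BMP3, a member of the family that acts as a BMP antagonist, was higher in all 3 transports. The gene lies on chromosome 8 at 136878960 to 136905263 on the minus strand. Its level was 4.72, 2.34 and 3.70 FPKM in controls and 5.51, 6.33 and 6.55 after transport, and the log2 fold change was 0.71 (SE 0.33, adjusted p = 0.890, edgeR). BMP3 differed less between the transports (SD 0.548 FPKM) than between the controls (1.2).

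The remaining BMP ligands overlapped between the groups. BMP2, a ligand of the villus, was at 5.83, 3.6 and 3.64 FPKM in controls and 3.54, 9.05 and 3.58 after transport, high in transport 2. BMP4, made by the mesenchyme under the epithelium, was at 5.42, 4.20 and 1.64 FPKM and at 6.17, 5.03 and 6.57, with control 3 the low library. BMP5, also of mesenchymal origin, was at 3.31, 1.33 and 3.80 FPKM and at 1.85, 2.79 and 1.15. BMP6, known in liver as the iron-sensing ligand, exceeded 1 FPKM in control 1 (1.09) only. BMP10 reached 0.0104 FPKM in transport 3 and BMP15 had no counts. Summed over the 8 ligands the level was 15.1 to 22.4 FPKM in controls and 19.2 to 25.2 after transport.

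The BMP receptors overlapped between the groups as well. BMPR2, the type II receptor, was among the most even members at 5.02, 4.18 and 5.69 FPKM in controls and 4.20, 5.75 and 3.97 after transport, a range of 1.45-fold. BMPR1A, the type I receptor whose loss in humans causes juvenile polyps, was at 5.54, 4.08 and 7.5 FPKM and at 5.81, 4.96 and 2.89, with means of 5.71 ± 1.71 and 4.56 ± 1.5 that overlapped. BMP1, a procollagen protease and no BMP ligand, had the highest level of the members with a mean of 16 FPKM. It was at 23.7, 9.07 and 19.2 FPKM in controls and 21.6, 13.8 and 8.65 after transport. BMP2K, a kinase induced by BMP2, was at 3.07 to 3.82 FPKM and 3.66 to 5.21.

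**Figure D5:**
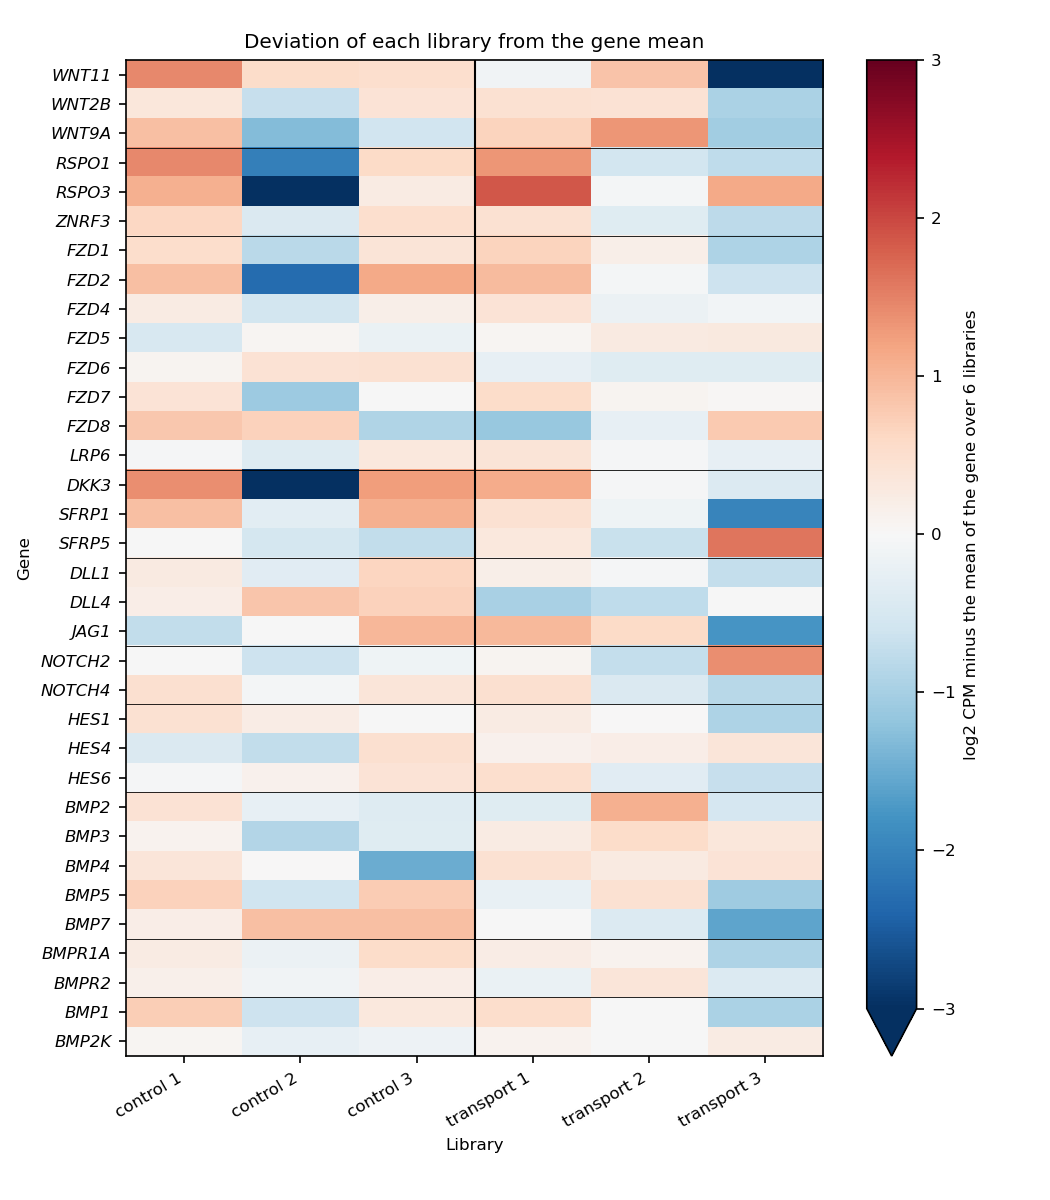
Log2 CPM of each of the 34 tested genes in each library minus the mean of that gene over the 6 libraries; blue is below and red above the mean, and the colour scale ends at 3. Control 2 has the deepest blue cells for RSPO1, RSPO3, FZD2 and DKK3, and transport 3 for WNT11, SFRP1, JAG1 and BMP7.

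Across the 34 members the low values were concentrated in 2 libraries, 1 of each group. Transport 3 was the lowest library on the log2 CPM scale for 16 members and control 2 for 11, and the other 4 libraries for 7 together. These are 47.1% and 32.4% of the members, where transport 3 was lowest for 29.4% and control 2 for 19.0% of all tested genes. The highest library was control 3 for 9 members, control 1 and transport 1 for 8 each, transports 2 and 3 for 4 each and control 2 for 1, DLL4. Transport 3 was highest for 11.8% of the members and for 32.8% of all tested genes. In transport 3, BMP7, JAG1, SFRP1 and WNT11 lay more than 2-fold below all the other libraries and NOTCH2 and SFRP5 more than 2-fold above. These are 11.8% and 5.88% of the members, beside 7.12% and 8.67% of all tested genes.

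Other genes of the same pathways were read from lists beside the members. Of 44 further Wnt genes, 35 were tested, and 0 passed the adjusted threshold. Their median log2 fold change was -0.17, and 3 (8.57%) had no overlap between the groups, beside 0.07 and 11.6% for all tested genes. Of all tested genes 1.61% were lower and 3.52% higher at an unadjusted edgeR p under 0.05, beside 1 and 1 of these 35. At an unadjusted p under 0.05, 1 was lower, EPHB2, a receptor of crypt cells under Wnt control, at 7.03, 10.6 and 14.4 FPKM in controls and 4.67, 2.27 and 2.31 after transport (log2 fold change -1.84, SE 0.42, adjusted p = 0.890, edgeR). TNKS, the tankyrase that degrades axin, was the 1 higher gene, at 1.31, 1.15 and 1.59 FPKM and at 1.79, 2.34 and 3.46 (log2 fold change 0.83, SE 0.31, adjusted p = 0.890, edgeR). AXIN2, a standard Wnt target, was at 6.80, 4.25 and 5.13 FPKM in controls and 5.89, 3.34 and 3.04 after transport, and ASCL2, a Wnt target of stem cells, at 5.50, 4.51 and 5.30 against 5.03, 1.96 and 0.645. LGR5, the R-spondin receptor of stem cells, was below the filter at 0.372 to 1.80 FPKM. The log2 fold change was -0.46 (SE 0.38) for AXIN2 and -1.03 (SE 0.72) for ASCL2. In the same list EPHB3 had a log2 fold change of 0.15 (SE 0.37) and MYC of -0.06 (SE 0.29). It was -0.85 (SE 0.49) for CCND1, -0.81 (SE 0.45) for SOX9, -0.80 (SE 0.39) for CD44 and -1.05 (SE 0.77) for NOTUM. The groups overlapped in all of these. AXIN2, ASCL2, LGR5, EPHB3, MYC, CCND1, SOX9, CD44 and NOTUM were chosen after their values were seen. Of the 35 tested genes 14 had higher and 21 lower values after transport, where 43.1% of all tested genes had lower values.

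Of 33 further Notch genes 26 were tested, and 0 passed the adjusted threshold or an unadjusted p under 0.05. Of all tested genes 5.13% had an unadjusted edgeR p under 0.05. For the Notch genes the median log2 fold change was 0.17 and 2 (7.69%) had no overlap, beside 0.07 and 11.6% for all tested genes. Of 32 further BMP genes 26 were tested, with the same counts of 0, a median of 0.20 and 1 (3.85%) without overlap. GREM1, a BMP antagonist of the muscle layer chosen after its values were seen, was at 22.8, 0.168 and 16.7 FPKM in controls and 31.0, 10.1 and 37.9 after transport, with control 2 far below the other libraries. The BMP target gene ID1, also chosen afterwards, was at 5.29, 4.46 and 4.18 FPKM and at 6.85, 8.71 and 3.18. At an adjusted p of 0.05 the 3 lists held 0 called genes in edgeR.

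In all, 32 members stayed below the filter. Of these 8 had no count in any library, 18 had counts but stayed under 1 FPKM in all 6, and 6 reached 1 FPKM in 1 or 2 libraries. When every gene with a count was tested, 58 members entered, 0 were called, and DLL4 and BMP7 were again the 2 with an unadjusted p under 0.05.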

How the data were processed

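Total RNA of jejunum was extracted with Trizol and sequenced on standard Illumina libraries, per the labels' protocols. The authors deposited raw counts for each gene, named as such per the file headers. FPKM was computed by the authors, per the file headers, and a count of 0 is written as 0.0001 there and is given as 0 here. Coordinates are those of the table. Its genome build is not stated, nor are the aligner, counting tool or strand use. Transport columns carry a different prefix from the label and were matched by group and replicate number. Of 6907 bare identifiers 951 got a symbol from a gene name reference.

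The 12012 genes that reached 1 FPKM in 3 or more of the 6 libraries were tested with edgeR 4.0.16 in R 4.3.3 (quasi-likelihood test, TMM scaling, group as the only factor, Benjamini-Hochberg adjustment over all tested genes). The common biological coefficient of variation was 0.473. Each SE of an edgeR fold change was taken as its size divided by the square root of the F statistic. The fit was tested on simulated data. DESeq2 1.42.0 and limma 3.58.1 were alternatives. Members, lists and the rule for named genes were chosen with earlier results of these data known. The rule gave values in every library for members with an unadjusted p under 0.05 or without overlap, the best expressed of each role and 7 core genes. Fold changes of other members were printed after their values were seen. Libraries with the same replicate number deviated weakly together from their group means (r = 0.217, 0.111 and 0.187 across genes). Across different numbers r ran from -0.261 to 0.101. The labels state no pairing, and 3 libraries a group are too few for these values to establish a pairing. The main fit left the number out, and an alternative used it as a block.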

Additional observations from a re-analysis of the deposited data

How the results depend on the processing

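With each of 15 alternatives 0 members were called, and the median log2 fold changes of the members and of the 3 families moved by less than the spread between libraries. With the DESeq2 test 50 genes of the whole table were called, 27 higher and 23 lower. With limma on log2(FPKM + 1) or log2(FPKM + 0.1) 1 gene was called, higher, as without both control 2 and transport 3. With 1 library left out, the count of all genes called was 0 to 3 (0 to 2 higher, 0 to 1 lower), and members without overlap numbered 5 to 12, while 16.7% to 28.2% of all tested genes had none. These members numbered 12 without both control 2 and transport 3, where 29.3% of all tested genes had no overlap. Over all 15 alternatives they numbered 4 to 12, beside 9.78% to 29.3% of all tested genes. With the replicate block 0 members were called and the unadjusted p of BMP7 was 0.0586, and no other call changed. DLL4 stayed between -1.50 and -0.71 on the log2 scale, BMP7 between -1.59 and -0.79, FZD6 between -0.78 and -0.40 and BMP3 between 0.50 and 0.99, with adjusted p-values of 0.282 to 1.0, 0.428 to 1.0, 0.437 to 1.0 and 0.56 to 1.0. DKK3 turned to 0.21 and 0.47 in the 2 limma fits, to 0.27 with the replicate block and ran from -0.98 to 0.05 with 1 library left out, and the cause was not tested. NOTCH2 turned to -0.19 without both control 2 and transport 3 and ran from -0.05 to 1.12 with 1 library left out. Each fit has 2 or 3 libraries a group, which limits what it can show.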
